A study of Mus musculus with 18 samples.

Results

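RNA of regulatory T cells from mice labelled Dyrk1 deletion was compared with RNA of the same cells from wild-type mice. The comparison used 6 of the 18 libraries of the series, chosen by their genotype label, 3 in each group. Both groups carried the Foxp3-YFP-cre allele, which makes a fluorescent Cre recombinase wherever Foxp3 is transcribed. The wild-type animals carried that allele alone, and the other group carried it together with floxed Dyrk1. All animals were male and 6 to 8 weeks old, no treatment is named, and CD4+ cells were enriched on a column before YFP+ cells were sorted. The other 12 libraries, 3 for each of 4 labels (HDAC1, HDAC2, Mef2c and Mef2d deletion with the same Cre), served as a second point of comparison. The label does not say whether Dyrk1a, Dyrk1b or both were floxed, and the breeding text speaks of a conditional Rcor1 knockout that no group label carries. Replicates are described as independent biological samples.

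Regulatory T cells are CD4+ T cells that depend on the transcription factor Foxp3 and hold other immune cells in check. DYRK1A and DYRK1B are related protein kinases that phosphorylate serine and threonine. They are known for holding cells out of the cycle: they phosphorylate D-type cyclins, which marks these for degradation, and DYRK1A phosphorylates LIN52, which assembles the DREAM complex that represses cell-cycle genes in quiescent cells. DYRK1A also primes NFAT transcription factors for export from the nucleus. These roles set the order in which gene groups are described.

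Values are FPKM, that is, fragments scaled by gene length and by library depth, so they can be compared between genes. Differences are on the log2(FPKM + 1) scale, Dyrk1 deletion minus wild type, with the standard error (SE) from limma after the ± sign. The test covered the 12223 genes that reached 1 FPKM in 3 or more libraries. A gene was called at a Benjamini-Hochberg adjusted p under 0.05. On this scale the change of genes with low values is understated.

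The cells carried the RNA of CD4+ Foxp3+ T cells in both groups. Foxp3 was at 92.7, 106 and 87.95 FPKM in wild-type replicates 1 to 3 and at 96.8, 113 and 111 in Dyrk1 deletion replicates 1 to 3. The groups overlapped and the difference of 0.16 ± 0.104 did not pass the test (adjusted p = 0.304). Cd3e, a subunit of the T cell receptor complex, lay between 242 and 333 FPKM over the 6 libraries, and Cd4 between 186 and 266. Il2ra, the high-affinity interleukin-2 receptor chain, lay between 130 and 168, with a difference of 0.19 ± 0.0862 that did not pass (adjusted p = 0.133).

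Neither Dyrk1 gene was low under its own label. Dyrk1b (chr7:28179469-28187294, plus strand, mm10) was at 6.74, 7.54 and 6.73 FPKM in wild type and 11.01, 11.8 and 12.6 in Dyrk1 deletion. Every Dyrk1 deletion library was above every wild-type library and above the 6.57 to 9.15 of the other 12 libraries. The rise was 0.68 ± 0.0955 (adjusted p = 6.79e-04). Dyrk1a (chr16:94570010-94695517, plus strand) was at 28.6, 28.4 and 25.99 FPKM in wild type and 32.6, 30.8 and 35.9 in Dyrk1 deletion. The groups did not overlap, but the rise of 0.25 ± 0.0753 (adjusted p = 0.0352) was lost in 4 of 6 fits that left out 1 library. Its adjusted p was 0.129 without Dyrk1 deletion replicate 3, and 0.0532, 0.0571 and 0.130 when wild-type replicate 1, 2 or 3 was left out. It was also lost under RLE (relative log expression) scaling, with an adjusted p of 0.0904. After trends with gene length and GC content were removed, the difference was 0.14 (adjusted p = 0.166). An FPKM value sums reads over a whole gene, so removal of single exons need not lower it, and these values check the label in neither direction.

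Of the wider family of DYRK and HIPK kinases, 5 of 8 tested members rose and 0 fell, beside 11.1% higher and 6.19% lower over all genes. The median log2 difference was 0.26, against 0.02 over all genes tested. Leaving out Dyrk1 deletion replicate 3 or wild-type replicate 3 cut the count of rises to 1, which was Dyrk1b. Removal of trends with gene length and GC content also left 1, and RLE scaling left 3. Compared with the other 4 deletion labels, 1 of the 8 was higher and 0 were lower, beside 9.55% and 12.4% over all genes.

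Library depth is not stated in the table. From the value of a single read and annotated gene lengths it was estimated at 18.5 to 20.6 M reads in wild type and 18.4 to 21.8 M in Dyrk1 deletion, with 47.1% to 48.9% of low values falling within 0.03 of a whole read. The Dyrk1 deletion libraries differed among themselves in RNA of other cells. Cd79a and Ms4a1, which mark B cells, were at 127 and 36.6 FPKM in Dyrk1 deletion replicate 1. In the other 5 libraries Cd79a lay between 5.46 and 14.2 and Ms4a1 between 0.631 and 3.46. All 24 B cell markers in the table were above 0 in each library, and their summed level was 713 to 1476 in wild type and 2665, 730 and 1450 in the 3 Dyrk1 deletion libraries.

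**Figure D1:**
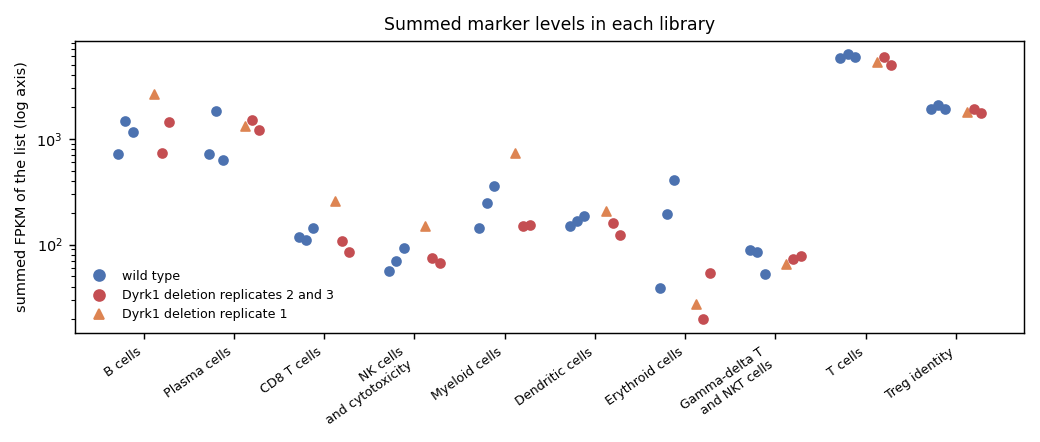
Summed FPKM of 10 marker lists (log axis) in each wild-type library (circles, left of each pair) and each Dyrk1 deletion library (right; the triangle is replicate 1). Dyrk1 deletion replicate 1 is the highest of the 6 for B cells (2665), CD8 T cells (258), NK cells (150) and myeloid cells (727), while the T cell sums of all 6 lie between 4976 and 6334.

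The same replicate had the highest CD8 T cell sum (258, against 84.8 to 145 in the other 5), the highest NK cell sum (150, against 56.4 to 93.2) and the highest myeloid sum (727, against 143 to 359). Cd8a stood at 22.4 FPKM there and at 0.642 to 4.27 elsewhere, and Lyz2 at 101 against 2.87 to 34.3. Erythroid sums were 38.8, 193 and 411 in wild type and 27.3, 19.6 and 53.8 in Dyrk1 deletion, so they were high in wild-type replicates 2 and 3 while the groups overlapped. No B cell, CD8, NK or myeloid marker passed the test between the groups. In the other lists, 1 of 12 plasma cell markers (Prdm1) and 1 of 11 dendritic cell markers (Xcr1) were higher. Lower were 1 dendritic marker (Batf3), 1 of 10 erythroid markers (Hba-a1) and 1 of 4 genes on the epithelial and stromal list (Pecam1). Prdm1 is also on the effector Treg list, and the plasma cell markers Jchain and Tnfrsf17 overlapped between the groups. The erythroid falls numbered 6 without wild-type replicate 1, 2 without Dyrk1 deletion replicate 3 and 0 with any other single library left out. The plasma cell rise was lost without Dyrk1 deletion replicate 3 or wild-type replicate 3. The dendritic rises numbered 2 without Dyrk1 deletion replicate 2 and 0 without Dyrk1 deletion replicate 3 or wild-type replicate 2, and the dendritic fall was lost without Dyrk1 deletion replicate 2 or 3 or wild-type replicate 1 or 3. At an unadjusted p under 0.05 the counts in limma were 1 of 24 for B cells, 1 of 9 for CD8, 0 of 13 for NK and 0 of 18 for myeloid cells, and 5 of 10 for erythroid cells. Since replicate 1 stands apart, counts are given with and without it, and the part of these other cells in any single difference was not tested unless a value bears on it.

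Many genes differed by a little. In limma, 2116 of 12223 genes were called (17.3%), 1359 higher (11.1%) and 757 lower (6.19%) in Dyrk1 deletion. The median absolute log2 difference of called genes was 0.38. On the log2(FPKM + 1) scale, 46 higher and 31 lower genes differed by 1 or more. At low values this takes more than a 2-fold change in FPKM. Without Dyrk1 deletion replicate 1, 2595 genes were called (21.2%), 1609 higher (13.2%) and 986 lower (8.07%), and 1872 of the 2116 were called again in the same direction. None of the 2116 differences changed sign in that fit, whether or not the gene was called again. The 3 libraries of each group did not overlap for 3644 genes (29.8%), with Dyrk1 deletion higher for 2177 (17.8%) and lower for 1467 (12%).

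The balance of directions depended on scaling. RLE scaling gave 1087 higher and 917 lower genes, and removal of trends with gene length and GC content gave 748 higher and 868 lower. The spread estimate is shared by all 18 libraries: fitted on the 6 libraries alone, 58 genes passed (26 higher, 32 lower) and 2525 had an unadjusted p under 0.05. Of the genes described here, those that passed in that fit were Rec8, Sesn2, Pik3r3, Bbc3, Btg2, Cdkn2c, Rbl1, Cd83 and Dyrk1b among the rises, and Crabp2, Gsta4, Ly6c1, Myo6, Igsf23, Gsto1, Igfbp4, Fah, Ldhb, Gpr83, Actn1 and Cdkn1c among the falls. Leaving out single libraries gave 1188 calls (without Dyrk1 deletion replicate 3) to 2595 (without Dyrk1 deletion replicate 1), and 1246 without wild-type replicate 3.

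Against the mean of the other 4 deletion labels, 2681 genes were called (21.9%), 1167 higher (9.55%) and 1514 lower (12.4%). Both comparisons use the same 3 Dyrk1 deletion libraries, so their values are set side by side and not counted as support for each other. List counts that follow are read beside the shares over all genes. These are 11.1% higher and 6.19% lower against wild type, and 9.55% and 12.4% against the other 4 labels.

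**Figure D2:**
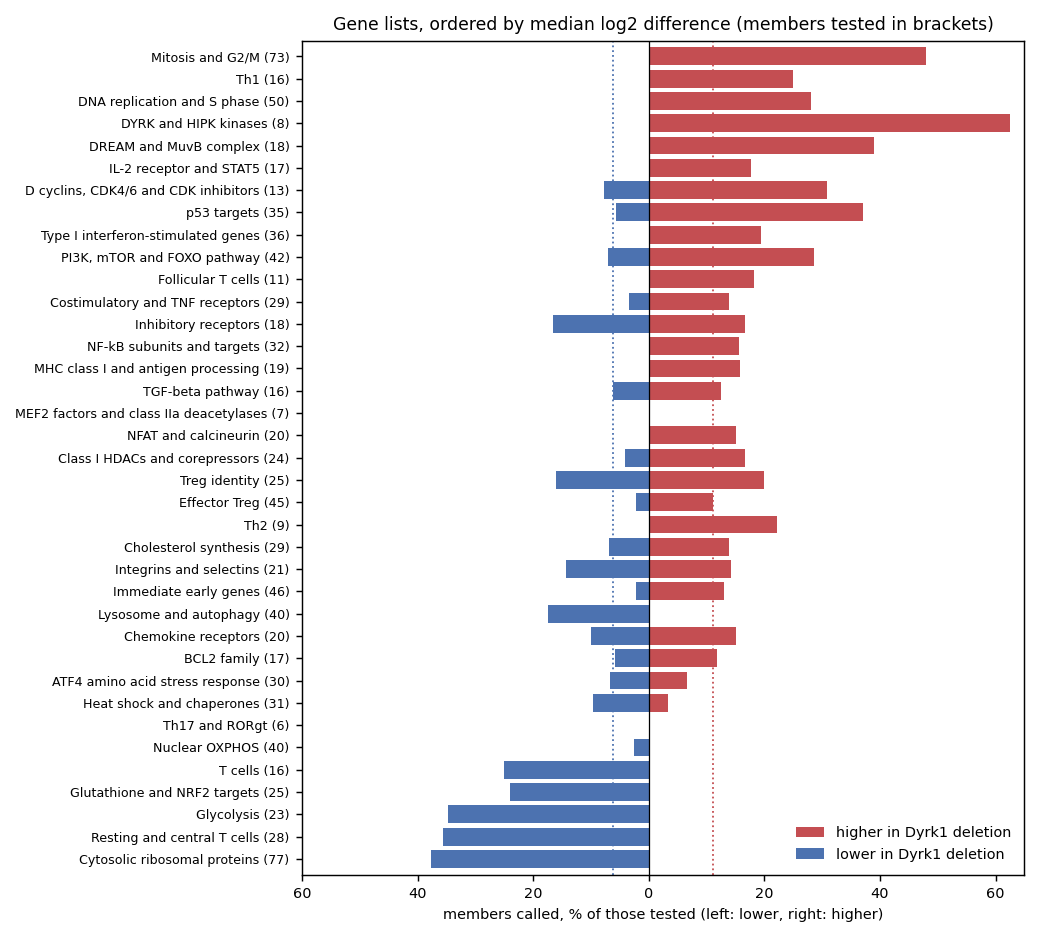
Share of tested members called higher (right, red) or lower (left, blue) in Dyrk1 deletion for 37 gene lists, ordered by median log2 difference, with the number tested in brackets. Dotted lines mark the shares over all genes (11.1% higher, 6.19% lower). Mitosis genes (35 of 73 higher) are at the top and ribosomal protein genes (29 of 77 lower) at the bottom.

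Genes of mitosis gave the highest count of rises among the lists. Of 73 tested genes of mitosis and the G2/M phase, 35 were higher and 0 lower in Dyrk1 deletion, and 72 had a positive difference (median 0.52). In bulk RNA, more cells in cycle and more of these transcripts per cell cannot be told apart. Mki67, which encodes the proliferation marker Ki-67, was at 21.2, 13.4 and 23.96 FPKM in wild type and at 43.1, 39.3 and 54.1 in Dyrk1 deletion. Every Dyrk1 deletion library was above the highest of the other 15, which reached 25.9. The rise was 1.20 ± 0.187 (adjusted p = 0.00121), and 1.24 without Dyrk1 deletion replicate 1 (adjusted p = 0.00232).

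Smc2, a subunit of the condensin complex that compacts mitotic chromosomes, was at 15.5, 11.4 and 17.4 FPKM in wild type and 23.2, 22.01 and 25.8 in Dyrk1 deletion. It rose by 0.66 ± 0.13 (adjusted p = 0.00466). Plk4, the kinase that starts centriole duplication, was at 7.90, 5.35 and 8.11 FPKM in wild type and 12.5, 10.6 and 11.9 in Dyrk1 deletion and rose by 0.66 ± 0.139 (adjusted p = 0.00727). Cenpf, a kinetochore protein, was at 2.81, 1.52 and 3.36 FPKM in wild type and 5.13, 4.62 and 6.81 in Dyrk1 deletion and rose by 0.89 ± 0.193 (adjusted p = 0.00782). In each of the 3 genes, wild-type replicate 2 was the lowest of the 6 libraries and the groups did not overlap.

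The promoters of these genes are known for a CCAAT box, bound by the factor NF-Y, and a cell-cycle homology region (CHR), through which the DREAM complex acts. The 250 bases before the RefSeq start (GRCm38.p6) of Mki67, Smc2 and Cenpf, 3 of the 4 mitosis genes named above, are shown so that the motifs counted over the list can be seen in place. CHR (TTTGAA) and CCAAT are in capitals on either strand, so TTCAAA and ATTGG mark the opposite strand.
Mki67, chr7:135716380-135716629, minus strand: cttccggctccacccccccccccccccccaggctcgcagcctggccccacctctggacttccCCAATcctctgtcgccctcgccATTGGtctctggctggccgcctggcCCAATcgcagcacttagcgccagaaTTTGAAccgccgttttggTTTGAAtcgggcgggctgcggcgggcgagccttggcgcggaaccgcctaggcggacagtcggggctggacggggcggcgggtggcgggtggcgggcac
Smc2, chr4:52438971-52439220, plus strand: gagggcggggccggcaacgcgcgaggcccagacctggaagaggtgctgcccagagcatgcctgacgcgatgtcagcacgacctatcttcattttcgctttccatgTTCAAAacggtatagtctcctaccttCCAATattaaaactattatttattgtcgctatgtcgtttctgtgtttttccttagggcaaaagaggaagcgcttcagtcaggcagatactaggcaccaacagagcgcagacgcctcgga
Cenpf, chr1:189688087-189688336, minus strand: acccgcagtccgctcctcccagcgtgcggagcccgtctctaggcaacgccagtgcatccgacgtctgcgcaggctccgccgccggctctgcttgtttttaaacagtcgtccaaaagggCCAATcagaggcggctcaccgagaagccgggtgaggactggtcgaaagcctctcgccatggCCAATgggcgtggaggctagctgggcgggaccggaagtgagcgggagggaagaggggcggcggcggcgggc
The Mki67 window holds 2 CHR matches, the nearer starting 98 bases before the start, and 3 CCAAT matches. The Smc2 window holds 1 of each, and the Cenpf window holds 2 CCAAT matches.

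A CHR match was found in 22 of 60 mitosis genes with a window (36.7%), in 12.9% of the 8869 tested genes with a window and in 16% of all 32851 windows. A CCAAT match was found in 43 of 60 (71.7%), against 40.6% and 33.8%. Both motifs occurred together in 31.7% of the mitosis windows, against 4.95% and 5.55%. Within the list, 13 of 31 called genes and 9 of 29 genes that did not pass had a CHR match, and 21 of 31 and 22 of 29 had a CCAAT match. A match describes letters in a window and does not show binding.

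**Figure D3:**
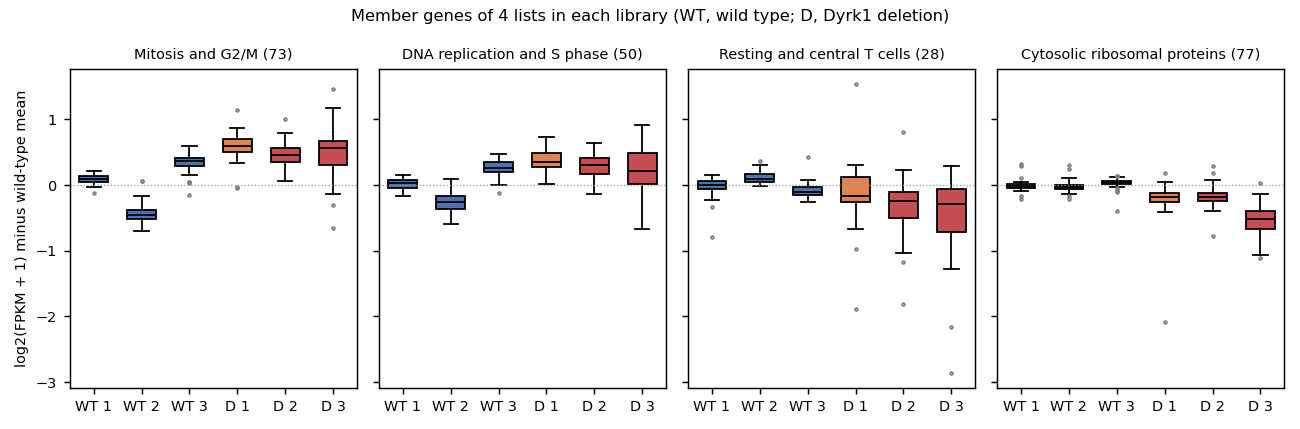
Member genes of 4 lists in each library, as log2(FPKM + 1) minus the gene's wild-type mean; boxes show the quartiles and median, whiskers reach 1.5 interquartile ranges, and dots lie beyond. Mitosis medians are 0.60, 0.45 and 0.56 in Dyrk1 deletion and range from -0.45 to 0.37 in wild type, while ribosomal protein medians are lowest in Dyrk1 deletion replicate 3 (-0.52).

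The wild-type libraries themselves differed in these genes. The median of the 73 mitosis genes, relative to each gene's wild-type mean, was 0.09, -0.45 and 0.37 in wild-type replicates 1 to 3 and 0.60, 0.45 and 0.56 in Dyrk1 deletion replicates 1 to 3. In the other 12 libraries it ran from -1.02 to -0.05. Thus all 3 Dyrk1 deletion medians were above the other 15, by a narrow margin over wild-type replicate 3. For 38 of the 73 genes, each Dyrk1 deletion library was above each of the other 15 libraries, which held for 346 of all genes tested (2.83%), and 359 of all genes (2.94%) were below the other 15 in that way. Against the mean of the other 4 labels, 71 of 73 were higher and 0 lower (median 1.06). Mki67 differed there by 1.39 ± 0.148 (adjusted p = 1.69e-05).

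The mitosis count moved with single libraries. It was 24 without Dyrk1 deletion replicate 1 and 17 without Dyrk1 deletion replicate 3. Leaving out wild-type replicate 2 gave 15, and leaving out wild-type replicate 3 gave 54. It was 22 after length and GC trends were removed, 18 without a filter on low values, and 0 (39 at an unadjusted p under 0.05) when limma was fitted on the 6 libraries alone.

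Genes of DNA replication and S phase followed with smaller differences. Of 50 tested, 14 were higher and 0 lower, and 47 had a positive difference (median 0.28). Dnmt1, the DNA methyltransferase that maintains methylation after replication, was at 50.2, 40.1 and 56.3 FPKM in wild type and 66.6, 63.5 and 78.95 in Dyrk1 deletion. The groups did not overlap, and it rose by 0.51 ± 0.103 (adjusted p = 0.00573). Gins3, part of the replicative helicase, rose by 0.43 ± 0.0812 (adjusted p = 0.00406), and Prim1, the catalytic primase subunit, rose by 0.45 ± 0.105 (adjusted p = 0.0117). Compared with the other 4 labels, 48 of 50 were higher and 0 lower (median 0.60). The count against wild type was 8 without Dyrk1 deletion replicate 1, 6 without Dyrk1 deletion replicate 3 and 6 after length and GC trends were removed. Leaving out wild-type replicate 2 gave 4 and leaving out wild-type replicate 3 gave 26.

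Of 18 tested subunits of the DREAM and MuvB complexes and their E2F partners, 7 rose and 0 fell (median 0.23). Rbl1, which encodes the pocket protein p107 of DREAM, was at 18.3, 17.2 and 17.6 FPKM in wild type and 26.1, 26.2 and 27.1 in Dyrk1 deletion. Its Dyrk1 deletion values were close to each other and above the 17.6 to 22.1 of the other 12 libraries. Rbl1 rose by 0.56 ± 0.0602 (adjusted p = 7.98e-05). Lin9, a core MuvB subunit, rose by 0.50 ± 0.0947 (adjusted p = 0.00399). Its range was 5.21 to 6.12 FPKM in wild type and 7.74 to 8.89 in Dyrk1 deletion.

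E2f2, an activating E2F factor, was at 26.1, 20.2 and 30.04 FPKM in wild type and 44.2, 42.99 and 50.6 in Dyrk1 deletion, and its groups did not overlap. It rose by 0.84 ± 0.124 (adjusted p = 9.02e-04). Foxm1, which drives late cell-cycle transcription, rose by 0.66 ± 0.142 (adjusted p = 0.00808). Its range was 5.51 to 8.67 FPKM in wild type and 11.5 to 12.3 in Dyrk1 deletion. The count was 8 without Dyrk1 deletion replicate 1 and 7 without any other single library. In the comparison with the other 4 labels, 12 of 18 were higher and 2 lower.

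Several inhibitors of the cell cycle rose as well. Of 13 tested D-type cyclins, CDK4/6 genes and CDK inhibitors, 4 rose (Cdkn2c, Cdkn1a, Ccnd2 and Cdkn1b) and 1 fell (Cdkn1c). Cdkn2c, which encodes the CDK4/6 inhibitor p18, was at 10.4, 8.73 and 12.9 FPKM in wild type and 21.5, 22.01 and 24.1 in Dyrk1 deletion. The lowest Dyrk1 deletion library was well above the highest of the other 15 (12.9). Cdkn2c rose by 1.03 ± 0.144 (adjusted p = 6.79e-04). Cdkn1a, which encodes p21, was at 3.23, 2.47 and 3.90 FPKM in wild type and 5.57, 6.95 and 8.22 in Dyrk1 deletion and rose by 0.91 ± 0.197 (adjusted p = 0.00782).

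Ccnd2, which encodes cyclin D2, was at 105, 105 and 94.3 FPKM in wild type and 118, 127 and 183 in Dyrk1 deletion. Dyrk1 deletion replicate 3 was far above the other 5, and without it the difference of 0.46 ± 0.135 (adjusted p = 0.0306) became 0.27 (adjusted p = 0.106). Without wild-type replicate 1, 2 or 3 its adjusted p was 0.0554, 0.0554 or 0.104. Cdkn1b, which encodes p27, differed by 0.18 ± 0.056 (adjusted p = 0.044), and 5 of 6 fits without 1 library lost that call: its adjusted p was 0.078, 0.0848 and 0.0743 without Dyrk1 deletion replicates 1, 2 and 3, and 0.1 and 0.183 without wild-type replicates 1 and 3. The list count was 3 without Dyrk1 deletion replicate 1 and 2 under RLE scaling, without Dyrk1 deletion replicate 3, or with wild-type replicate 1 or 3 left out. Cdkn1c, which encodes p57 and was named because it alone fell, was at 3.16, 3.02 and 3.44 FPKM in wild type and 1.36, 0.999 and 1.43 in Dyrk1 deletion (difference -0.90 ± 0.146, adjusted p = 0.00166).

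Btg2, Mxd4 and Klf10 were among the 15 largest rises. Btg2, an antiproliferative gene also induced early by stimulation, was at 64.1, 80.7 and 55.99 FPKM in wild type and 143, 164 and 129 in Dyrk1 deletion. All 3 Dyrk1 deletion libraries exceeded the 65.4 to 98.8 of the other 12, and Btg2 rose by 1.11 ± 0.114 (adjusted p = 4.81e-05). Mxd4, which competes with MYC for the partner MAX, was at 84.8, 83.8 and 75.8 FPKM in wild type and 128, 150.0 and 189 in Dyrk1 deletion and rose by 0.91 ± 0.118 (adjusted p = 3.82e-04). Klf10, a zinc-finger factor induced by TGF-beta, was at 5.97, 5.88 and 6.96 FPKM in wild type and 10.7, 16.3 and 13.7 in Dyrk1 deletion and rose by 0.99 ± 0.124 (adjusted p = 3.19e-04).

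Targets of p53, the transcription factor that responds to DNA damage and other stress, included several of the largest rises. Of 35 tested targets, 13 rose and 2 fell (median 0.18), and 15 rose and 2 fell without Dyrk1 deletion replicate 1. Single left-out libraries gave 11 to 15 rises. The falls numbered 0 without wild-type replicate 2, and 1 without Dyrk1 deletion replicate 3 or wild-type replicate 3. Sesn2, a stress-induced sestrin that senses leucine and inhibits mTORC1, was at 3.60, 3.65 and 3.54 FPKM in wild type and 13.97, 13.9 and 18.8 in Dyrk1 deletion. The 3 wild-type libraries were nearly equal, and every Dyrk1 deletion library was above the 3.04 to 5.01 of the other 12. Sesn2 rose by 1.83 ± 0.117 (adjusted p = 4.36e-07), and by 1.82 ± 0.0928 against the other 4 labels (adjusted p = 9.20e-09).

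Bbc3, which encodes the pro-apoptotic protein PUMA, was at 20.8, 22.6 and 20.1 FPKM in wild type and 58.4, 68.01 and 55.05 in Dyrk1 deletion. Its other 12 libraries lay at 16.2 to 23.4, below all 3. Bbc3 rose by 1.47 ± 0.099 (adjusted p = 7.29e-07) and remained called in the fit of the 6 libraries alone, as did Sesn2. Ccng2, which encodes the growth-inhibitory cyclin G2, rose by 0.57 ± 0.0582 (adjusted p = 4.42e-05). Its range was 17.3 to 18.3 FPKM in wild type and 24.4 to 28.5 in Dyrk1 deletion. Whether p53 acts on Ccng2 in these cells was not tested. The 2 that fell were Xpc, a DNA damage sensor (difference -0.29 ± 0.0766, adjusted p = 0.0209), and Aen, a nuclease (difference -0.17 ± 0.0464, adjusted p = 0.0217). Xpc lost its call without Dyrk1 deletion replicate 2 or wild-type replicate 2, and Aen without Dyrk1 deletion replicate 3 or wild-type replicate 2 or 3. Trp53 itself was at 54.9 to 59.2 FPKM in wild type and 49.6 to 54.8 in Dyrk1 deletion and did not pass (adjusted p = 0.161). Relative to the other 4 labels, 11 of the 35 targets were higher and 4 lower, beside 9.55% higher and 12.4% lower over all genes.

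Sesn2 is also a target of ATF4, the factor of the amino acid stress response. Of 30 tested ATF4 targets, 2 rose and 2 fell (median -0.10). The rises were below and the falls near the shares over all genes (11.1% higher and 6.19% lower). Leaving out wild-type replicate 1 or 3 gave 0 falls, wild-type replicate 2 gave 4, and Dyrk1 deletion replicate 2 gave 1. The risers were Sesn2 and Cebpg, a C/EBP family factor that rose by 0.63 ± 0.0952 (adjusted p = 9.68e-04). Against the other 4 labels Cebpg did not pass (difference 0.21 ± 0.0753, adjusted p = 0.0582). The fallers were Eif4ebp1, an inhibitor of translation (difference -0.51 ± 0.154, adjusted p = 0.0363), and Asns, asparagine synthetase (difference -0.59 ± 0.187, adjusted p = 0.0422). Without Dyrk1 deletion replicate 3 the Eif4ebp1 difference was -0.36 (adjusted p = 0.147), and 4 other fits without 1 library also lost it, with adjusted p of 0.0512 to 0.125. Asns was not called without Dyrk1 deletion replicate 2 or 3 or with wild-type replicate 1 or 3 left out.

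In the BCL2 family of apoptosis regulators, 2 of 17 tested genes rose and 1 fell, near the shares over all genes (11.1% higher and 6.19% lower). The risers act in opposite ways: Bbc3 promotes cell death, and Mcl1, which opposes it, was at 215, 223 and 198 FPKM in wild type and 299.6, 271 and 254 in Dyrk1 deletion. Mcl1 rose by 0.37 ± 0.0697 (adjusted p = 0.00371). Bik, a pro-apoptotic member, fell (difference -0.86 ± 0.242, adjusted p = 0.0265) and was not called without Dyrk1 deletion replicate 1 (adjusted p = 0.0602) or replicate 3, or with wild-type replicate 2 left out.

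PI3K, mTOR and FOXO signalling links growth factor receptors to growth and metabolism. Of 42 tested genes of this signalling, 12 rose and 3 fell (median 0.13), beside 11.1% higher and 6.19% lower over all genes. Leaving out any wild-type replicate gave 1 fall. The count of rises was 12 without Dyrk1 deletion replicate 1, 7 without Dyrk1 deletion replicate 3, 6 without wild-type replicate 3 and 6 after length and GC trends were removed. Pik3r3, a regulatory subunit of PI3-kinase, was at 1.85, 1.94 and 1.26 FPKM in wild type and 6.53, 8.64 and 7.19 in Dyrk1 deletion. Its other 12 libraries lay at 1.15 to 2.36, below all 3. Pik3r3 rose by 1.66 ± 0.139 (adjusted p = 8.21e-06), and by 1.63 ± 0.11 against the other 4 labels (adjusted p = 2.07e-07).

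Sesn3, a FOXO-induced sestrin, rose by 0.55 ± 0.117 (adjusted p = 0.00751). It did not pass against the other 4 labels, where the difference was 0.12 ± 0.0923 (adjusted p = 0.381). There, 3 of the 42 genes were higher and 6 lower, near the 9.55% and 12.4% over all genes.

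Genes typical of resting and central T cells, which recirculate through lymph nodes, were lower. Of 28 tested, 0 rose and 10 fell (median -0.23), 13 fell without Dyrk1 deletion replicate 1, and leaving out single libraries gave 8 to 13. Ly6c1, a surface marker, was at 87.6, 116 and 88.01 FPKM in wild type and 25.3, 26.8 and 12.4 in Dyrk1 deletion, and the other 12 libraries lay at 52.1 to 116. All 3 Dyrk1 deletion libraries were below the other 15, and Ly6c1 fell (difference -2.19 ± 0.25, adjusted p = 1.29e-04). Reads of Ly6c1 may be shared with its near-identical paralog Ly6c2, so the level of each is uncertain.

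Actn1, an actin cross-linker, was at 69.4, 72.5 and 61.8 FPKM in wild type and 42.1, 36.8 and 38.3 in Dyrk1 deletion, and fell (difference -0.78 ± 0.088, adjusted p = 1.16e-04). Ccr7, the chemokine receptor for lymph node entry, was at 219.9, 213 and 183 FPKM in wild type and 172, 117 and 99.3 in Dyrk1 deletion and fell by 0.70 (SE 0.156, adjusted p = 0.0093). Satb1, a chromatin organiser, fell by 0.45 (SE 0.0773, adjusted p = 0.00237), and Igfbp4, an insulin-like growth factor binding protein, by 1.10 (SE 0.155, adjusted p = 6.79e-04). In each of these 4 genes the groups did not overlap. Against the other 4 labels, 0 of 28 were higher and 15 lower. Ccr7 did not pass there (difference -0.31 ± 0.124, adjusted p = 0.0891).

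**Figure D4:**
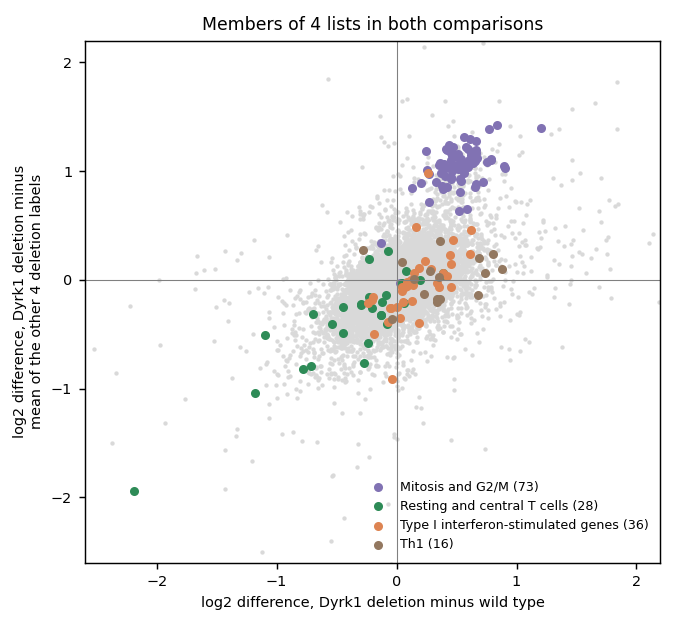
Log2 difference from wild type (horizontal) and from the mean of the other 4 deletion labels (vertical) for all genes (grey) and the members of 4 lists; 18 genes lie outside the axes, and both axes share the 3 Dyrk1 deletion libraries. Mitosis genes (medians 0.52 and 1.06) are high on both axes, and interferon-stimulated genes (medians 0.13 and -0.06) and Th1 genes (medians 0.35 and 0.04) lie near 0 on the vertical one.

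Treg identity genes moved in both directions. Of 25 tested, 5 rose and 4 fell (median 0.03), beside 11.1% higher and 6.19% lower over all genes. Cd83, a surface glycoprotein that is also an NF-kB target, was at 31.96, 31.3 and 34.6 FPKM in wild type and 56.9, 55.8 and 52.5 in Dyrk1 deletion. The groups did not overlap, and Cd83 rose by 0.74 ± 0.079 (adjusted p = 7.49e-05). Gpr83, a Treg-enriched receptor, was at 37.3, 37.7 and 34.6 FPKM in wild type and 14.00, 17.8 and 19.6 in Dyrk1 deletion, with all 3 Dyrk1 deletion libraries below the 30.6 to 60.99 of the other 12. It fell by 1.06 (SE 0.13, adjusted p = 2.86e-04). The count of rises was 7 without Dyrk1 deletion replicate 1, 2 without Dyrk1 deletion replicate 2 or 3, and 3 without wild-type replicate 3.

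Of 45 tested effector Treg genes, 5 rose and 1 fell (median 0.03), near the background shares. Leaving out single libraries gave 2 (without Dyrk1 deletion replicate 2 or 3 or wild-type replicate 3) to 8 rises (without Dyrk1 deletion replicate 1), and 3 without wild-type replicate 1 or 2. Klrg1, an inhibitory lectin receptor of terminally differentiated cells, was at 16.98, 17.7 and 19.1 FPKM in wild type and 8.68, 11.2 and 7.53 in Dyrk1 deletion and fell by 0.92 (SE 0.176, adjusted p = 0.00439). Cxcr3, a chemokine receptor of Th1-type Treg, was at 22.8, 20.9 and 29.6 FPKM in wild type and 36.9, 39.6 and 53.6 in Dyrk1 deletion and rose by 0.80 ± 0.179 (adjusted p = 0.00918). Against the other 4 labels Cxcr3 did not pass (difference 0.23 ± 0.142, adjusted p = 0.266). Prdm1, also on the plasma cell list, was among the rises (0.35 ± 0.0912, adjusted p = 0.0185).

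Of 18 tested inhibitory receptors and ligands, 3 rose and 3 fell (median 0.11), beside 11.1% higher and 6.19% lower over all genes. There was 1 rise without Dyrk1 deletion replicate 2 or wild-type replicate 3. Cd96, an inhibitory receptor for CD155, was at 81.5, 80.9 and 71.2 FPKM in wild type and 59.3, 56.00 and 56.3 in Dyrk1 deletion, and fell by 0.44 (SE 0.0596, adjusted p = 5.65e-04). Cd5, which dampens T cell receptor signals, was at 275, 287 and 277 FPKM in wild type and 216, 239 and 215 in Dyrk1 deletion and fell by 0.32 (SE 0.0549, adjusted p = 0.00218). Of 16 tested T cell genes, 0 rose and 4 fell (Cd5, Thy1, Cd6 and Cd3d), and 15 had a negative difference (median -0.15). Cd6, a co-receptor related to CD5, fell by 0.33 (SE 0.0606, adjusted p = 0.00344), and Thy1, a surface glycoprotein of T cells, fell by 0.38 (SE 0.0655, adjusted p = 0.00254). Leaving out single libraries gave 4 to 5 falls in this list, although Cd3d lost its call without Dyrk1 deletion replicate 3 (adjusted p = 0.0573). The T cell sums overlapped between groups: 5779, 6334 and 5920 FPKM in wild type, and 5325, 5934 and 4976 in Dyrk1 deletion.

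Lists of signalling downstream of T cell activation gave few calls, to be read beside the 11.1% higher and 6.19% lower over all genes. In the list of the interleukin-2 receptor and STAT5, 3 of 17 rose and 0 fell. Pim1, a survival kinase induced by STAT5, was at 122, 145 and 134 FPKM in wild type and 191, 239.8 and 213 in Dyrk1 deletion, above the 105 to 144 of the other 12 libraries. Pim1 rose by 0.68 ± 0.0938 (adjusted p = 6.15e-04). Socs2, a STAT5-induced feedback inhibitor, was at 15.8, 19.9 and 17.3 FPKM in wild type and 28.1, 31.2 and 27.4 in Dyrk1 deletion and rose by 0.68 ± 0.118 (adjusted p = 0.00239). The third was Mcl1.

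In the NF-kB list, 5 of 32 rose and 0 fell (median 0.09). Nfkb2, the precursor of the p52 subunit, was at 51.8, 53.2 and 56.2 FPKM in wild type and 68.7, 70.3 and 70.9 in Dyrk1 deletion and rose by 0.38 ± 0.0601 (adjusted p = 0.00154). Bcl3, a nuclear partner of p52, rose by 0.48 ± 0.0717 (adjusted p = 9.57e-04), and Icam1, an adhesion molecule induced by NF-kB, rose by 0.49 ± 0.0912 (adjusted p = 0.00368). Single left-out libraries gave 4 to 7 rises, the most without Dyrk1 deletion replicate 1.

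NFAT factors carry calcium signals from the T cell receptor and are substrates of DYRK kinases. Of 20 tested genes of NFAT and calcineurin, 3 rose and 0 fell (median 0.06). Nfatc1 was at 48.8, 50.01 and 46.3 FPKM in wild type and 56.9, 61.8 and 73.97 in Dyrk1 deletion, and rose by 0.39 ± 0.0797 (adjusted p = 0.00563). Nfat5, a factor of osmotic stress, rose by 0.73 ± 0.157 (adjusted p = 0.00782). Neither passed against the other 4 labels: Nfatc1 differed by 0.18 ± 0.063 (adjusted p = 0.0573) and Nfat5 by -0.07 ± 0.124 (adjusted p = 0.751). Of 46 tested immediate early genes, 6 rose and 1 fell (median -0.03). Btg2 and Klf10 rose, and Klf4, a factor of quiescence, fell (difference -0.89 ± 0.208, adjusted p = 0.0112). The rises numbered 2 without wild-type replicate 3 and 3 with wild-type replicate 1 left out. The falls numbered 5 without Dyrk1 deletion replicate 1 and 6 without Dyrk1 deletion replicate 2.

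Tnfsf11, Tnfsf8 and Tnfsf10, ligands of the TNF family, rose. Tnfsf11, which encodes RANKL, was at 15.6, 15.6 and 14.96 FPKM in wild type and 18.8, 27.4 and 29.5 in Dyrk1 deletion, and rose by 0.66 ± 0.117 (adjusted p = 0.00291). Tnfsf8, which encodes the CD30 ligand, rose by 0.81 ± 0.152 (adjusted p = 0.00373), and Tnfsf10, which encodes TRAIL, by 0.49 ± 0.108 (adjusted p = 0.00823). Against the other 4 labels Tnfsf11 (0.22 ± 0.0922, adjusted p = 0.112) and Tnfsf8 (0.31 ± 0.12, adjusted p = 0.08) did not pass. Tnfsf10 passed there (0.26 ± 0.085, adjusted p = 0.041). These ligands belong to a list of costimulatory and TNF receptor genes whose count was near the shares over all genes (11.1% and 6.19%). In that list 4 of 29 rose and 1 fell, and 8 rose and 0 fell without Dyrk1 deletion replicate 1. Lif, a cytokine of the interleukin-6 family, was at 2.42, 3.20 and 3.81 FPKM in wild type and 5.91, 7.93 and 6.91 in Dyrk1 deletion and rose by 0.94 ± 0.163 (adjusted p = 0.00245).

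Ribosomal protein genes were lower as a group. Of 77 tested, 0 rose and 29 fell, and all 77 differences were negative (median -0.29). Their summed level was 127593, 125057 and 132277 FPKM in wild type and 112363, 114533 and 87992 in Dyrk1 deletion. The groups did not overlap, and Dyrk1 deletion replicate 3 was the lowest. Rpl5, a protein of the large subunit, was at 827, 826 and 839.6 FPKM in wild type and 697, 693 and 643 in Dyrk1 deletion and fell by 0.29 (SE 0.0598, adjusted p = 0.00577), and Rps14, of the small subunit, fell by 0.40 (SE 0.0738, adjusted p = 0.00345). Against the other 4 labels, 4 of 77 were higher and 4 lower (median -0.08). The count of falls was 37 without Dyrk1 deletion replicate 1 and 38 under RLE scaling. It was 7 without a filter on low values, and 0 (33 at an unadjusted p under 0.05) when limma was fitted on the 6 libraries alone. It was 13 without Dyrk1 deletion replicate 3, and 16, 19 and 12 without wild-type replicates 1, 2 and 3. Ribosomal protein genes have many processed copies, so the counting of their reads is uncertain.

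Among them Rps3a1 stood apart: it was at 1997, 1947 and 1972 FPKM in wild type and 466, 1145 and 946 in Dyrk1 deletion, with 424 to 1846 in the other 12 libraries. The wild-type libraries were close to each other, whereas Dyrk1 deletion replicate 1 was far below the other two. Rps3a1 fell by 1.31 (SE 0.215, adjusted p = 0.00181), and by 0.92 without replicate 1.

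Genes of sugar metabolism and of glutathione fell in part. Of 23 tested glycolysis genes, 0 rose and 8 fell (median -0.22), with 7 falls without Dyrk1 deletion replicate 1. The falls numbered 4 without wild-type replicate 3, and 5 without Dyrk1 deletion replicate 2 or with wild-type replicate 1 left out. Ldhb, a lactate dehydrogenase subunit, was at 32.5, 34.04 and 33.8 FPKM in wild type and 17.5, 15.7 and 12.7 in Dyrk1 deletion, below the 23.1 to 43.6 of the other 12 libraries. It fell by 1.09 (SE 0.0999, adjusted p = 1.79e-05). Pdk1, which limits pyruvate entry into mitochondria, fell by 0.44 (SE 0.0939, adjusted p = 0.00728). Against the other 4 labels, 1 of 23 was higher and 7 lower (median 0.00), beside 9.55% and 12.4% over all genes.

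Of 25 tested genes of glutathione metabolism and the oxidant-response factor NRF2, 0 rose and 6 fell (median -0.19), and 7 fell without Dyrk1 deletion replicate 1. The falls numbered 3 without wild-type replicate 3 and 4 without Dyrk1 deletion replicate 3. The list median, relative to each gene's wild-type mean, was -0.06, -0.20 and -0.46 in Dyrk1 deletion replicates 1 to 3. In wild-type replicates 1 to 3 it was -0.08, -0.04 and 0.13. Against the other 4 labels, 0 of 25 were higher and 3 lower (median -0.10). Gsta4, a glutathione transferase that detoxifies lipid aldehydes, was at 26.9, 25.8 and 27.7 FPKM in wild type and 5.74, 4.27 and 3.35 in Dyrk1 deletion. The other 12 libraries spread over 5.84 to 28.3, so Dyrk1 deletion was lowest, but low values were also seen under other labels. Gsta4 fell by 2.37 (SE 0.208, adjusted p = 1.17e-05). Gsto1, an omega-class transferase, was at 32.5, 32.4 and 30.9 FPKM in wild type and 17.1, 12.7 and 10.99 in Dyrk1 deletion, with 11.6 to 30.4 in the other 12, and fell by 1.19 (SE 0.131, adjusted p = 9.03e-05).

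Of 40 tested genes of lysosome and autophagy, 0 rose and 7 fell (median -0.06), beside 11.1% higher and 6.19% lower over all genes. The counts were 2 rises and 10 falls without Dyrk1 deletion replicate 1. The falls numbered 4 without Dyrk1 deletion replicate 2 or wild-type replicate 2. Npc2, a lysosomal cholesterol carrier, fell by 0.36 (SE 0.0613, adjusted p = 0.00234), and Hexa, a lysosomal hexosaminidase subunit, by 0.38 (SE 0.0878, adjusted p = 0.0105). Nuclear genes of oxidative phosphorylation gave 1 fall and 0 rises of 40, under the background share, and 3 falls without Dyrk1 deletion replicate 1. Of the 40 differences, 39 were negative (median -0.15). The list median, relative to each gene's wild-type mean, was -0.03, -0.06 and -0.38 in Dyrk1 deletion replicates 1 to 3. In wild-type replicates 1 to 3 it was -0.07, -0.06 and 0.12. Against the other 4 labels, 2 of 40 were higher and 0 lower (median 0.07).

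Type I interferon-stimulated genes gave 7 rises and 0 falls of 36 (median 0.13), beside 11.1% higher and 6.19% lower over all genes. Without Dyrk1 deletion replicate 1 the rises numbered 6. Wild-type replicate 1 was low: its list median was -0.39, against 0.21 and 0.14 in wild-type replicates 2 and 3 and 0.22, 0.21 and 0.01 in Dyrk1 deletion. Without wild-type replicate 1 the rises numbered 2, without Dyrk1 deletion replicate 3 they numbered 3, and without Dyrk1 deletion replicate 2 or wild-type replicate 3 they numbered 4. Parp14 rose by 0.61 ± 0.118 (adjusted p = 0.00447). Against the other 4 labels Parp14 differed by 0.24 ± 0.0931 (adjusted p = 0.0778).

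Th1 genes gave 4 rises and 0 falls of 16 (median 0.35), beside 11.1% higher and 6.19% lower over all genes. Il18r1, a chain of the interleukin-18 receptor, was at 22.4, 19.9 and 19.8 FPKM in wild type and 28.5, 33.5 and 39.8 in Dyrk1 deletion and rose by 0.68 ± 0.116 (adjusted p = 0.00232). Against the other 4 labels it differed by -0.14 ± 0.0916 (adjusted p = 0.304), and the list by 1 higher and 1 lower gene of 16 (median 0.04). Leaving out single libraries gave 2 (without Dyrk1 deletion replicate 3 or wild-type replicate 1 or 2) to 7 Th1 rises (without Dyrk1 deletion replicate 1).

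Among the 15 largest rises, several genes belong to none of the groups above. Rec8, a cohesin subunit best known from meiosis, was at 5.29, 6.88 and 4.62 FPKM in wild type and 20.7, 28.6 and 18.8 in Dyrk1 deletion. All 3 Dyrk1 deletion libraries exceeded the 5.92 to 11.5 of the other 12, and Rec8 rose by 1.84 ± 0.171 (adjusted p = 2.03e-05). Fcrl1, an Fc receptor-like molecule of B cells, was at 3.25, 3.37 and 3.01 FPKM in wild type and 24.5, 9.40 and 8.83 in Dyrk1 deletion. Replicate 1, which is rich in B cell RNA, was the highest. Without it Fcrl1 differed by 1.26 (adjusted p = 7.99e-04), against 1.71 ± 0.281 with it (adjusted p = 0.00181). Cd79a in replicates 2 and 3 was within the wild-type range. The other 12 libraries reached 16.9 FPKM of Fcrl1, above replicates 2 and 3, and the part of B cell RNA in its difference was not tested.

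Dclk2, a doublecortin-like kinase, was at 3.64, 3.48 and 3.80 FPKM in wild type and 10.2, 7.68 and 6.46 in Dyrk1 deletion and rose by 0.96 ± 0.136 (adjusted p = 7.30e-04). Gprin3 was at 6.07, 5.71 and 4.02 FPKM in wild type and 8.19, 12.1 and 16.7 in Dyrk1 deletion and rose by 1.05 ± 0.224 (adjusted p = 0.00732), but it lay at 6.98 to 13.7 in the other 12 libraries and differed from these by 0.06 ± 0.177 (adjusted p = 0.834). Gadd45g, a stress-induced gene, was at 12.3, 18.2 and 16.02 FPKM in wild type and 34.2, 51.6 and 18.5 in Dyrk1 deletion. Replicate 3 was close to wild type, and the rise of 1.02 ± 0.27 (adjusted p = 0.0196) was lost without Dyrk1 deletion replicate 2 (0.68, adjusted p = 0.0709) and without wild-type replicate 1 (0.87, adjusted p = 0.0717).

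**Figure D5:**
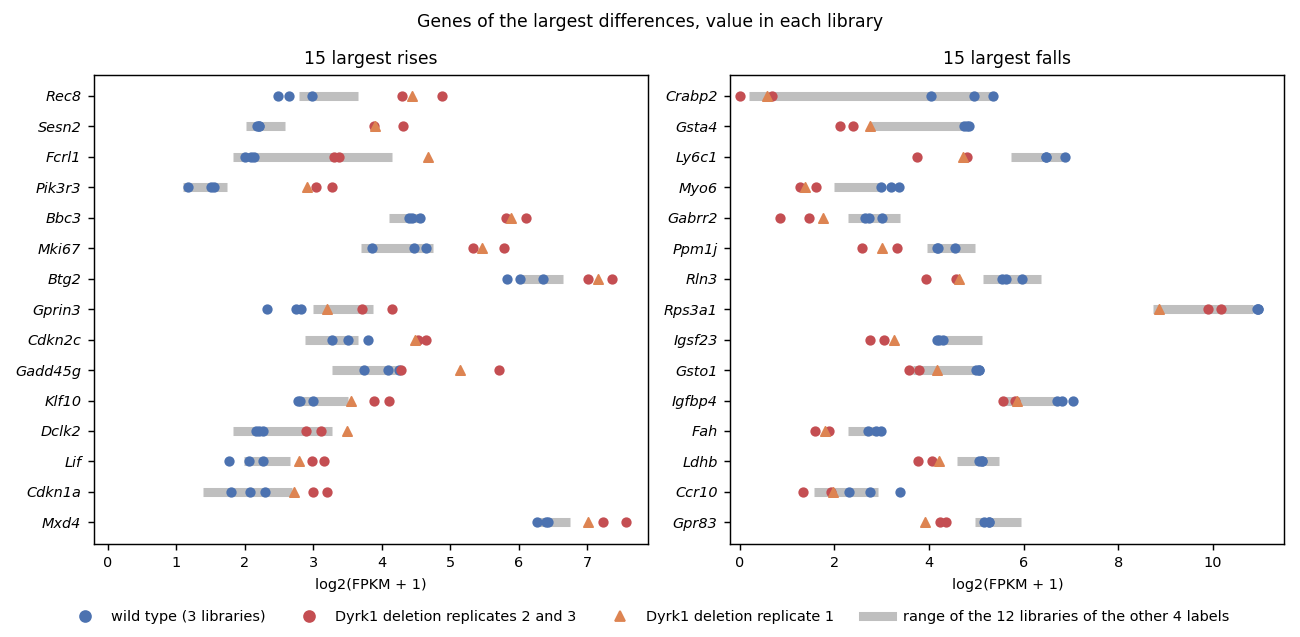
Values of the 15 largest rises and 15 largest falls in each library, as log2(FPKM + 1): wild type (blue), Dyrk1 deletion replicates 2 and 3 (red) and replicate 1 (orange triangle), over the range of the 12 libraries of the other labels (grey bar). Sesn2, Pik3r3 and Bbc3 lie above the grey bars in all 3 Dyrk1 deletion libraries and Ly6c1, Myo6 and Igsf23 below, while the bar of Crabp2 covers all 3 wild-type libraries and Dyrk1 deletion replicates 1 and 2, with replicate 3 listed at 0.

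The largest fall was in Crabp2, which binds retinoic acid. It was at 29.9, 40.01 and 15.5 FPKM in wild type, at 0.497 and 0.592 in Dyrk1 deletion replicates 1 and 2, and listed at 0 in replicate 3. The difference was -4.37 ± 0.85 (adjusted p = 0.00462). However, the other 12 libraries ran from 0.151 to 41.6 FPKM, and against them the difference of -1.61 ± 0.672 did not pass (adjusted p = 0.102).

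Myo6, an actin motor that moves towards minus ends, was at 8.13, 9.37 and 6.88 FPKM in wild type and 1.59, 1.40 and 2.07 in Dyrk1 deletion, and fell by 1.76 (SE 0.138, adjusted p = 4.77e-06). The other 12 libraries lay at 2.99 to 7.07 FPKM of Myo6. Myo6 (chr9:80165031) lies near Gsta4 (chr9:78182774), and a link between their falls was not tested. Igsf23, an immunoglobulin superfamily member, was at 17.6, 16.9 and 18.8 FPKM in wild type and 8.57, 7.32 and 5.76 in Dyrk1 deletion and fell by 1.20 (SE 0.109, adjusted p = 1.69e-05). Rln3, which encodes the peptide hormone relaxin-3, was at 45.7, 48.4 and 61.4 FPKM in wild type and 23.8, 22.8 and 14.2 in Dyrk1 deletion and fell by 1.33 (SE 0.167, adjusted p = 3.19e-04). In these 3 genes every Dyrk1 deletion library was below all other 15.

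Ppm1j, a protein phosphatase, fell by 1.34 (SE 0.179, adjusted p = 4.78e-04). Gabrr2, a GABA receptor subunit, fell by 1.43 (SE 0.194, adjusted p = 5.52e-04), and Fah, the last enzyme of tyrosine breakdown, fell by 1.09 (SE 0.109, adjusted p = 3.84e-05). Ccr10, a chemokine receptor of skin and mucosa, was at 5.76, 3.96 and 9.50 FPKM in wild type and 2.95, 2.82 and 1.54 in Dyrk1 deletion. Its difference of -1.07 ± 0.292 (adjusted p = 0.0233) was lost without Dyrk1 deletion replicate 3 (-0.86, adjusted p = 0.0935) and without wild-type replicate 3 (-0.78, adjusted p = 0.104), and it did not pass against the other 4 labels (adjusted p = 0.313).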

How the data were processed

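Reads were aligned and counted by the authors with STAR and HTSeq on mm10, per the submitters' processing notes; versions, annotation release and strand setting are not given in the sources used here. The authors deposited one table of 35275 Ensembl identifiers by 18 libraries, whose header names no unit. The deposited values were read as FPKM from their behaviour (RPKM cannot be told apart), with no counts. Gene symbols matched 34490 identifiers; positions, lengths and GC content are from GENCODE M21, promoter windows from RefSeq (GRCm38.p6).

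A mean per group was fitted to log2(FPKM + 1) over all 18 libraries (12 residual degrees of freedom) with limma 3.58.1 (variance trend) in R 4.3.3, with Benjamini-Hochberg adjustment over 12223 genes, after tests on simulated data. Tables and plots used Python 3.11.15. Named genes were Dyrk1a, Dyrk1b and Foxp3; the 15 largest rises and 15 largest falls called with and without Dyrk1 deletion replicate 1, at a mean of at least 5 FPKM in the higher group and without overlap; and up to 4 called members per list by adjusted p, some of which are not reported here. Pseudogenes, clone-like, antigen receptor and Y-linked genes were not eligible. Single members of a small count (Cdkn1c, Xpc, Aen, Bik, Asns), Trp53 and marker genes were named after their values were seen. The comparison and the 47 gene lists were chosen with earlier results of these data known.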

Additional observations from a re-analysis of the deposited data

How the results depend on the processing

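Against wild type, 2116 genes were called, 1359 higher and 757 lower. Leaving out single libraries gave 1188 to 2595 calls, 735 to 1609 of them higher and 444 to 986 lower. The lowest totals came without Dyrk1 deletion replicate 3 and, at 1246 (802 higher, 444 lower), without wild-type replicate 3; the lower genes numbered 453 without Dyrk1 deletion replicate 3. Fitted on the 6 libraries alone, 58 genes passed (26 higher, 32 lower). In the 5 libraries left without Dyrk1 deletion replicate 1, a setting added after the data were seen, 37 passed (22 higher, 15 lower). Removing trends with length and GC content left 748 higher genes. Other settings kept the total within 1.5 times: 2004 under RLE scaling, 2140 with a pseudocount of 0.1, 1530 without a filter, 1812 with a filter at 5 FPKM, 2045 without a variance trend and 2548 under RLE scaling without Dyrk1 deletion replicate 1, also added later.

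Replicate numbers were not used to pair libraries. The deviations of same-numbered libraries from their group means correlated at -0.25, 0.12 and -0.14, and with the replicate number as a block 1932 genes were called. Of 2031 values for 127 single genes over these settings, 1628 kept their status (called or not called), 403 lost their call and 0 changed sign. Nearly all of these genes were named because they were called. The largest rises and falls were also chosen by lack of overlap and by the fit without Dyrk1 deletion replicate 1. These counts were thus partly fixed by the choice of genes and do not measure how stable calls are. Of 1472 list counts, 343 moved by more than 1.5 times or between 0 and another count. Counts of 0 in both settings were taken as unchanged, and many lists had such counts. With 3 libraries a group, an exact permutation test of one gene cannot go below p = 0.10, so calls rest on the spread shared across genes and groups. Values at low FPKM rest on few reads.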

Other observations

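Lists built around the proteins that the other labels name are read beside the 11.1% higher and 6.19% lower over all genes. Of 24 tested class I histone deacetylase and corepressor genes, 4 were higher and 1 lower (median 0.05), and without Dyrk1 deletion replicate 3 or wild-type replicate 3 the count of higher genes was 1. Rcor1, named in the breeding text, was at 16.1, 16.1 and 15.2 FPKM in wild type and 17.1, 17.9 and 17.99 in Dyrk1 deletion, so it was not lower (difference 0.15 ± 0.0488, adjusted p = 0.0438 in limma, and 0.0619 to 0.151 in the 5 of 6 fits without 1 library that lost the call). Of 7 MEF2 factors and class IIa deacetylases, 0 passed, and 0 had an unadjusted p under 0.05. In sterol synthesis 4 of 29 genes rose and 2 fell, near those shares, and the rises numbered 2 without Dyrk1 deletion replicate 3 or wild-type replicate 2, under RLE scaling and after length and GC trends were removed. The falls numbered 1 without Dyrk1 deletion replicate 3 or wild-type replicate 1 or 3. Among the falls was Dhcr7, the last enzyme of the pathway, at a difference of -0.36 ± 0.0538 (adjusted p = 9.32e-04). Antigen presentation by MHC class I gave 3 rises of 19, led by Tapbpl, a peptide editor (0.32 ± 0.048, adjusted p = 9.20e-04).

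As a set, genes near the Dyrk1 loci were not called more often than others. Within 20 Mb of Dyrk1a on chromosome 16, 8 of 68 tested genes were higher and 2 lower (14.7%). Within 20 Mb of Dyrk1b on chromosome 7, 32 of 351 were higher and 19 lower (14.5%). That window holds Bbc3, Igsf23 and Cebpg, and a share over a window does not bear on single genes. Linkage of these genes to a targeted locus was not tested. Around Gsta4 on chromosome 9, in a window that also holds Myo6, 24 of 167 were higher and 15 lower (23.4%). The share over all genes was 17.3%.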
